A study of Homo sapiens with 6 samples.

Results

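The 8 enzyme genes described here make or salvage the deoxynucleotides (dNTPs) from which DNA is built. They were chosen by name from the 57905 genes of the deposited tables: the ribonucleotide reductase genes *RRM1*, *RRM2* and *RRM2B*, the thymidylate synthase gene *TYMS*, the thymidine kinase gene *TK1*, the deoxycytidine kinase gene *DCK*, the dUTPase gene *DUT* and the thymidylate kinase gene *DTYMK*. Each name matched 1 gene, and all 8 had enough counts to be tested. They were measured by poly(A) RNA sequencing in RT4, an established human cell line from a non-muscle invasive bladder tumour, listed as wild type. The LEADR-KD cells received 100 pmol of an siRNA against *LEADR*, a spliced non-coding transcript of *MIR205HG*, for 48 h, and the Scramble cells received the same amount of a control siRNA for the same time, with 3 libraries per group (LEADR-KD 1 to 3 and Scramble 1 to 3). A single *LEADR* siRNA was used. The study's methods speak of biological replicates, and the labels do not say whether the 3 libraries of a group stem from separate cultures, so the p values cover the spread between these libraries.

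Ribonucleotide reductase removes the 2′ hydroxyl of ribonucleotides and is the only route by which cells make deoxynucleotides anew. Its large subunit, encoded by *RRM1*, holds the catalytic and regulatory sites, and its small subunit carries the radical the reaction needs. The small subunit is encoded by *RRM2* in dividing cells and by *RRM2B*, a target of p53, outside S phase and after DNA damage. Thymidylate is made from dUMP by thymidylate synthase or from thymidine by thymidine kinase 1, and is carried on towards dTTP by thymidylate kinase, while dUTPase keeps uracil out of DNA and supplies dUMP. *RRM1*, *RRM2*, *TYMS* and *TK1* are classical genes of the G1/S transition, driven by E2F factors, and *RRM2* and *TK1* are also known for promoters with CCAAT boxes, the site of the factor NF-Y.

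The promoter windows of the 4 genes that rose below, and of *DTYMK*, whose level stayed closest to that of Scramble cells, are shown to compare their CCAAT boxes and E2F words. The sequences are those of RefSeq on GRCh38.p14, a later build than that of the count table, and 7 of the 8 genes were listed there. Each line gives the 150 bases before the listed start, 5′ to 3′ on the strand of the gene. Capitals mark CCAAT or its complement ATTGG, and the E2F words TTTCCCGC, TTTCGCGC, TTTGCCGC and TTTGGCGC or their complements. Where RefSeq lists several starts (2 for *RRM2* and for *TK1*), the window with most matches was taken.

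RRM2 (chr2:10122589-10122738, plus strand): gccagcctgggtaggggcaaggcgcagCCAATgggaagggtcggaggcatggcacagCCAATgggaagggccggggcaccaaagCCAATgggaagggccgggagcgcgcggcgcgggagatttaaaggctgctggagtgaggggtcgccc
RRM1 (chr11:4094535-4094684, plus strand): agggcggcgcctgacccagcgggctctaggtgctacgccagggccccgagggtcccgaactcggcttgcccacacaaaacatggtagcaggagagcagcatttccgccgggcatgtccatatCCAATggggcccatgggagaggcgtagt
TYMS (chr18:657503-657652, plus strand): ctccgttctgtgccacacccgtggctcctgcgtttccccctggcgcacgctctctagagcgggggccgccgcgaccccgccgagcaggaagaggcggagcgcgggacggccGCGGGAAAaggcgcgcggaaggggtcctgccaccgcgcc
TK1 (chr17:78187053-78187202, minus strand): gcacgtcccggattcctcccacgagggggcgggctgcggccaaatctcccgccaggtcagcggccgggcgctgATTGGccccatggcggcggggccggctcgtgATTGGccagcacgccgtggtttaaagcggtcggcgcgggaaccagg
DTYMK (chr2:241686816-241686965, minus strand): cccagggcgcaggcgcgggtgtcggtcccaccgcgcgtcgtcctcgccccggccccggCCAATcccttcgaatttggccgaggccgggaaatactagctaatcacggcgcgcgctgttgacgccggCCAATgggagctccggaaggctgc

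The *RRM2* promoter held 3 CCAAT boxes, which begin 123, 93 and 66 bases before the start, each followed by the same run GGGAAGGG. *TK1* held 2, both on the complementary strand, at 77 and 46 bases, and *RRM1* held 1 at 28 bases. The 300-base window of the other listed start held 1 CCAAT box for *RRM2* and 0 for *TK1*. *TYMS* held no CCAAT box and 1 E2F word at 39 bases, on the complementary strand. No listed window of *RRM1*, *RRM2*, *TK1* or *DTYMK* held an E2F word. *DTYMK*, which did not rise, also held 2 CCAAT boxes, at 92 and 24 bases. Over all 35116 RefSeq windows of 300 bases, searched on both strands, 34.6% held at least 1 CCAAT, 3.26% held at least 3 and 3.32% held at least 1 of the E2F words. The single window of *DCK* held 1 E2F word and no CCAAT box, and 1 of the 4 windows of *DUT* held 2 E2F words. Neither *DCK* nor *DUT* rose. The GC box GGGCGG, which can share bases with the E2F words and was counted on both strands, was found in 45.0% of all windows, and in at least 1 listed window of every matched gene except *TYMS*. A match is a description of the letters and not of a bound site.

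The 8 genes were read against libraries of similar depth. The deposited counts summed to 15706033 to 18960822 per library, and 14178 genes passed the filter on low counts. Mitochondrial genes took 10.8% of the counts of LEADR-KD 1 and 11.9% of those of Scramble 1, but 3.06% to 5.73% of those of the other libraries. *MIR205HG*, the targeted gene, had 113, 211 and 101 counts in the LEADR-KD libraries, against 511, 337 and 346 in the Scramble libraries (log2 fold change -1.47 ± 0.26 (SE); edgeR quasi-likelihood test, adjusted p = 0.00180). The counts are per gene and do not separate *LEADR* from other transcripts of *MIR205HG*. Of 13 urothelial and epithelial markers 12 were well enough covered to be tested, and their summed FPKM (counts per kilobase of gene length, relative to the library) was 2444 to 2653 in LEADR-KD and 2093 to 2324 in Scramble libraries. *KRT20*, the keratin of umbrella cells, was too low to be tested. Among these markers 2 rose (*CDH1* and *KRT18*) and 2 fell (*FOXA1* and *ELF3*). The summed FPKM of 6 fibroblast markers was 0.124 to 0.228 in LEADR-KD and 0.126 to 0.330 in Scramble, with 4 markers at 0 in every library, and that of 5 leukocyte markers was 0 to 0.232 in LEADR-KD and 0.0309 to 0.132 in Scramble, with 3 at 0. For 2 endothelial markers the sum was 0.256 to 0.459 in LEADR-KD and 0.723 to 1.04 in Scramble, and the one tested, *VWF*, fell (log2 fold change -1.16, edgeR adjusted p = 0.00553).

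Transcripts of the enzymes that feed DNA synthesis were higher in *LEADR*-depleted RT4 cells or did not pass the test. The data are of RNA only, and levels of the enzyme proteins or of dNTPs are not part of them. Of the 8 genes, 4 rose (*RRM2*, *TYMS*, *RRM1* and *TK1*), 0 fell (also 0 at an unadjusted p under 0.05, and 0 by DESeq2) and 4 did not pass (*DCK*, *RRM2B*, *DUT* and *DTYMK*), at a Benjamini-Hochberg adjusted p under 0.05 over all genes tested. Among all 14178 genes, 24.4% passed, 12.2% higher and 12.1% lower, so that 1 gene in the upward direction would match the background for a list of this size. The 8 genes were chosen with earlier results of these data known, so this share gives the scale and is not a test. The median log2 fold change of the 8 genes was 0.27, beside -0.01 over all genes tested. In bulk RNA a larger share of cells expressing a gene and more RNA per cell cannot be told apart. The changes were moderate: the largest of the 8 was that of *RRM2*, and 815 tested genes had a larger log2 fold change. The groups did not overlap in the 4 genes that rose and overlapped in the other 4, where 19.9% of all genes did not overlap upwards and 19.9% did not overlap downwards. When the counts were scaled by library totals only, all genes split into 1085 higher and 1553 lower, against 1736 and 1719 with TMM (the trimmed mean of M values), and the 4 enzyme genes still rose.

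**Figure D1:**
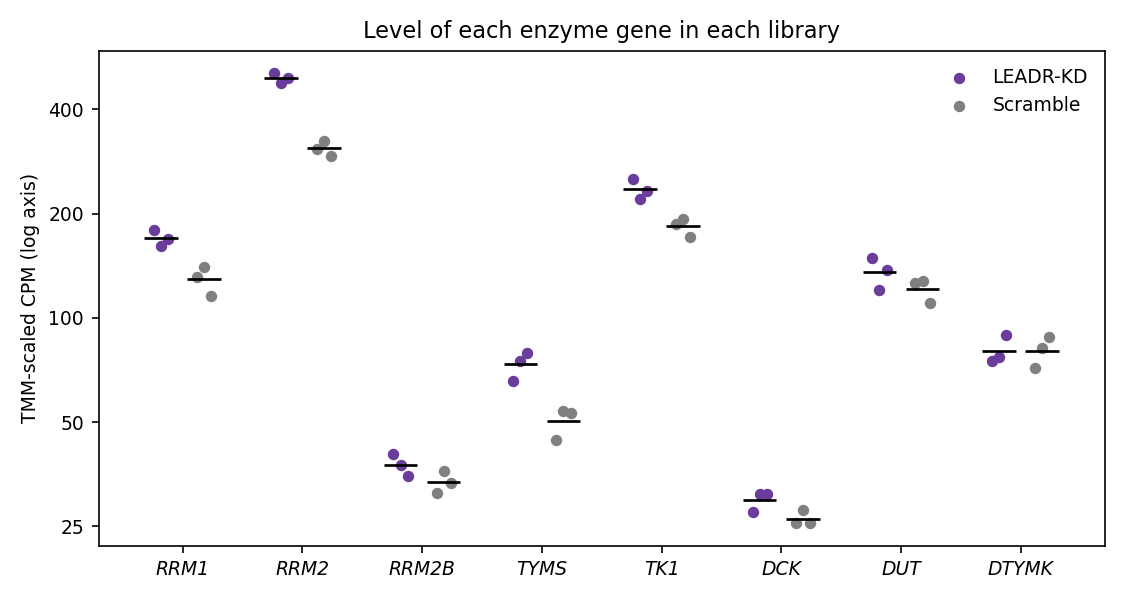
TMM-scaled CPM (counts relative to the scaled library size, log axis) of the 8 enzyme genes in each of the 6 libraries, with LEADR-KD in purple left of Scramble in grey and horizontal bars for the group means (n = 3). The purple and grey points are separate for *RRM1*, *RRM2*, *TYMS* and *TK1* and overlap for the other genes.

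*RRM2*, the S phase small subunit of ribonucleotide reductase, rose most in *LEADR*-depleted cells. Its GRCh37 (hg19) position is chromosome 2, 10262455 to 10271545. It had 508, 475 and 492 CPM in the LEADR-KD libraries, against 308, 325 and 294 CPM in the Scramble libraries. Every LEADR-KD library thus lay above every Scramble library by a wide margin relative to the spread within a group. The means were 492 ± 16.6 CPM in LEADR-KD and 309 ± 15.5 CPM in Scramble (SD, n = 3 each), which is 1.59-fold (95% interval 1.41 to 1.80) or a log2 fold change of 0.67 (SE 0.08, adjusted p = 1.60e-04 by edgeR). With 4921 to 8684 counts per library, *RRM2* ranked above 97.7% of the tested genes in mean CPM. Among the genes that were higher, 140 had a smaller p value. Its 3 annotated pseudogenes summed to 5 counts over the 6 libraries, so reads given to these copies were few.

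*RRM1*, which encodes the catalytic large subunit, rose less. It had 180, 161 and 169 CPM in the LEADR-KD libraries and 132, 140 and 116 CPM in the Scramble libraries. The lowest LEADR-KD library, LEADR-KD 2, lay above the highest Scramble library, Scramble 2. The means were 170 ± 9.48 CPM in LEADR-KD and 129 ± 12.4 CPM in Scramble (SD, n = 3 each), 1.31-fold (95% interval 1.15 to 1.51; log2 fold change 0.39, SE 0.09, edgeR adjusted p = 0.00840). When log2(FPKM + 1) of all genes, low ones included, was tested by limma, *RRM1* missed the threshold (adjusted p = 0.0502), while over the other 15 alternatives it passed. *RRM1* spans 4115937 to 4160106 on chromosome 11 of GRCh37, and its annotated antisense gene *RRM1-AS1* had 0 counts in all 6 libraries.

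*RRM2B*, the p53-inducible small subunit, did not pass. It had 40.5, 37.5 and 34.9 CPM in the LEADR-KD libraries and 31.2, 36.2 and 33.4 CPM in the Scramble libraries, so that LEADR-KD 3 lay below Scramble 2. The log2 fold change was 0.16 (SE 0.11, edgeR adjusted p = 0.301), with a 95% interval of -0.07 to 0.40. A rise up to 1.32-fold is therefore within the interval. On chromosome 8 of GRCh37 the gene spans 103216730 to 103251346. Beside it, 12 p53 target genes were tested: 0 rose, 1 fell and 11 did not pass, with a median log2 fold change of -0.06. The share that passed was 8.33%, beside 24.4% of all genes. The p53 target that fell was *BBC3*, which encodes the cell death factor PUMA (1.43 ± 0.489 CPM in LEADR-KD and 3.61 ± 1.05 CPM in Scramble, log2 fold change -1.33, edgeR adjusted p = 0.0163). This call was lost without Scramble 2, without Scramble 3 and when limma was run on unfiltered log2(FPKM + 1). A filter at a mean count of at least 50 left *BBC3* out, so it was not tested there. The number of the list that were lower was 0 in these settings, 2 without Scramble 1 and 3 with a block for replicate number. *CDKN1A*, which encodes the cell cycle inhibitor p21, was at 125 ± 18.4 CPM in LEADR-KD and 119 ± 18.8 CPM in Scramble, and *MDM2*, the p53 ubiquitin ligase gene, at 132 ± 11.2 and 143 ± 9.83 CPM (SD, n = 3), neither past the test.

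The balance of the reductase subunit transcripts was compared within each library, from FPKM, since only values per length can be set against each other between genes. The *RRM2* to *RRM1* ratio was 2.38, 2.49 and 2.46 in the LEADR-KD libraries and 1.97, 1.95 and 2.14 in the Scramble libraries. No library of a group reached the range of the other group. The means were 2.45 ± 0.0542 in LEADR-KD and 2.02 ± 0.103 in Scramble (SD, n = 3 each; exact permutation test, two-sided p = 0.1, the smallest that 3 against 3 allows, and 0.15 adjusted over the 3 ratios compared). *RRM2B* made up 6.64%, 6.59% and 5.97% of the small subunit FPKM (*RRM2* plus *RRM2B*) in the LEADR-KD libraries, against 8.29%, 9.05% and 9.22% in the Scramble libraries. The *RRM2B* to *RRM2* ratio averaged 0.0684 ± 0.00426 in LEADR-KD and 0.0972 ± 0.00597 in Scramble (SD, n = 3 each; exact permutation p = 0.1, 0.15 adjusted). Both ratios therefore differed without overlap between the groups, but no ratio can reach a p of 0.05 in this design.

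**Figure D2:**
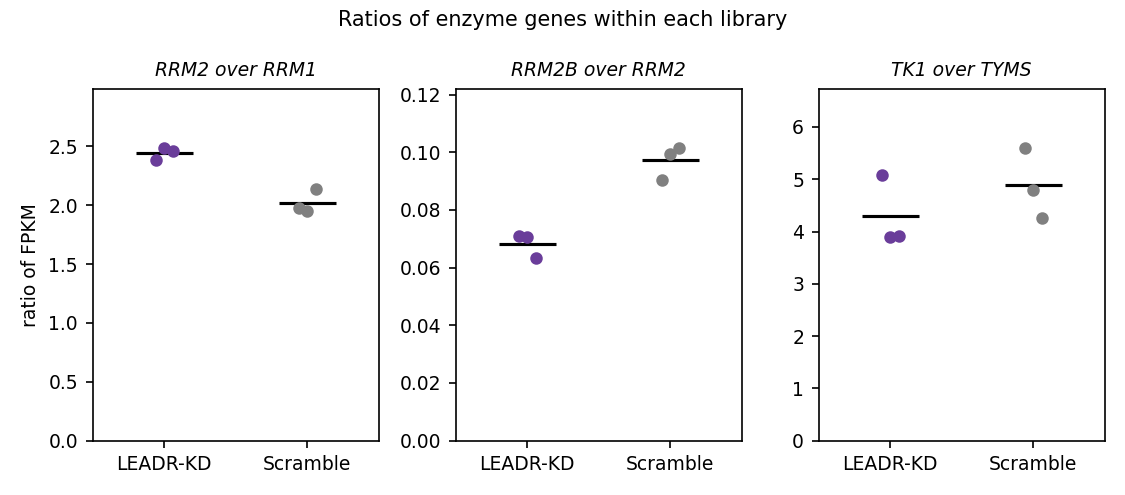
Ratio of FPKM between pairs of enzyme genes in each library, on axes that start at 0, with LEADR-KD (purple) left of Scramble (grey) and a bar at each mean (n = 3). The *RRM2* to *RRM1* ratio lies at 2.38 to 2.49 in LEADR-KD and 1.95 to 2.14 in Scramble, and the *TK1* to *TYMS* ratio overlaps between the groups.

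A gene of each route to thymidylate, *TYMS* and *TK1*, rose. *TYMS*, whose product methylates dUMP and is the target of 5-fluorouracil, had 65.7, 75.3 and 79.2 CPM in the LEADR-KD libraries, against 44.3, 53.7 and 53.3 CPM in the Scramble libraries. The groups were separate, with LEADR-KD 1 the lowest of the LEADR-KD libraries and Scramble 1 the lowest of the Scramble libraries. The means were 73.4 ± 6.95 CPM in LEADR-KD and 50.4 ± 5.32 CPM in Scramble (SD, n = 3 each), 1.46-fold (95% interval 1.24 to 1.71; log2 fold change 0.54, SE 0.11, edgeR adjusted p = 0.00363). *TYMS* lies on chromosome 18 of GRCh37 from 657604 to 673578, and 3255 bases of it overlap *ENOSF1* on the opposite strand. The libraries were directional, but the sources used here do not give the strand setting of the counting, and reads from the shared bases may be mixed. *ENOSF1* moved the other way (44.4 CPM in LEADR-KD and 55.7 CPM in Scramble on average, log2 fold change -0.33, edgeR adjusted p = 0.0491).

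*TK1*, the cytosolic kinase that salvages thymidine, had 251, 221 and 233 CPM in the LEADR-KD libraries and 187, 194 and 171 CPM in the Scramble libraries. Again the groups did not overlap. The means were 235 ± 15.3 CPM in LEADR-KD and 184 ± 11.5 CPM in Scramble (SD, n = 3 each), 1.28-fold (95% interval 1.13 to 1.45; log2 fold change 0.35, SE 0.08, edgeR adjusted p = 0.0102). Like *RRM1*, *TK1* missed the threshold only when limma was run on log2(FPKM + 1) of unfiltered genes (adjusted p = 0.0547). *TK1* is encoded on chromosome 17 of GRCh37 from 76170160 to 76183314. The *TK1* to *TYMS* ratio of FPKM was 4.30 ± 0.682 in LEADR-KD and 4.89 ± 0.675 in Scramble (SD, n = 3 each; exact permutation p = 0.3, 0.3 adjusted), and the 2 groups overlapped.

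*DTYMK*, which phosphorylates the product of both routes, showed no difference that the test could find. Its CPM was 75.1, 77.2 and 89.0 in the LEADR-KD libraries and 71.6, 82.0 and 87.9 in the Scramble libraries. The groups spanned nearly the same range. The log2 fold change was -0.00079 (SE 0.10, edgeR adjusted p = 0.997), with a 95% interval of -0.22 to 0.22, and its sign varied with the processing. A change of up to 1.17-fold is within this interval. It spans 242615157 to 242626406 on chromosome 2 of GRCh37.

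*DUT*, whose product hydrolyses dUTP, had 149, 120 and 137 CPM in the LEADR-KD libraries and 126, 128 and 110 CPM in the Scramble libraries. LEADR-KD 2 was lower than Scramble 1 and 2, so the groups overlapped. The log2 fold change was 0.16 (95% interval -0.06 to 0.37, edgeR adjusted p = 0.285). *DUT* lies on chromosome 15 of GRCh37 from 48623208 to 48635570. Its 8 annotated pseudogenes had 14 counts in all, and the gene counts do not separate its nuclear and mitochondrial isoforms.

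*DCK*, the kinase that salvages deoxycytidine and activates gemcitabine, had 27.6, 31.1 and 31.0 CPM in the LEADR-KD libraries and 25.6, 27.8 and 25.6 CPM in the Scramble libraries. Only LEADR-KD 1 fell within the Scramble range. The log2 fold change was 0.18 (95% interval -0.05 to 0.42, edgeR adjusted p = 0.254). The gene spans 71858255 to 71896631 on chromosome 4 of GRCh37, and 29912 bases of this span also belong to *MOB1B*, a gene of the Hippo pathway on the same strand, which fell (24.4 CPM in LEADR-KD and 40.9 CPM in Scramble on average, log2 fold change -0.75, edgeR adjusted p = 8.08e-04). Strand does not separate reads from bases that *DCK* and *MOB1B* share, so the *DCK* value is uncertain.

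**Figure D3:**
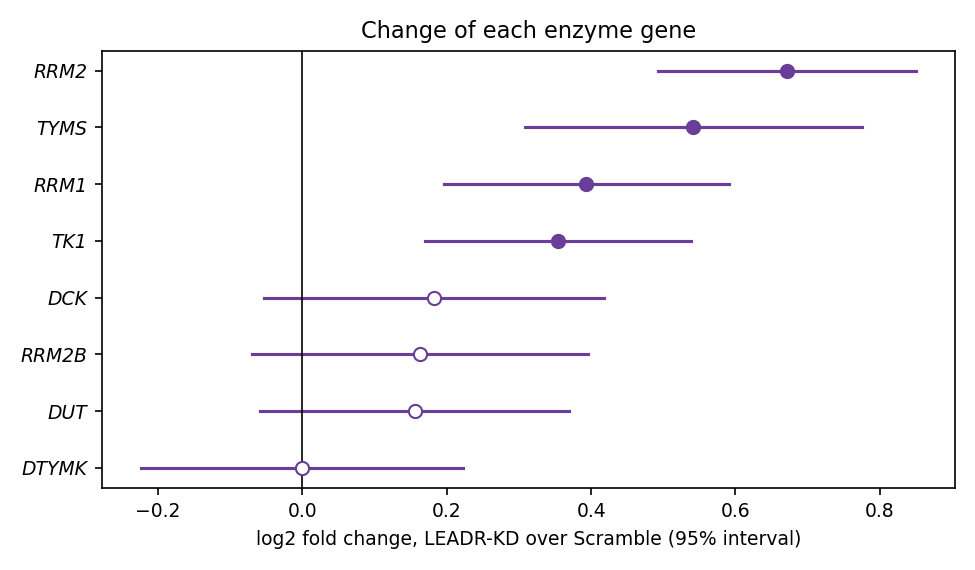
Log2 fold change of each enzyme gene, LEADR-KD over Scramble, with its 95% interval. Filled points passed at an adjusted p under 0.05: *RRM2* (0.67), *TYMS* (0.54), *RRM1* (0.39) and *TK1* (0.35), and the intervals of the 4 open points include 0.

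On the FPKM scale the 8 genes covered a wide range of levels. In LEADR-KD cells *TK1* was highest (126 FPKM on average), followed by *RRM2* (99.0), *RRM1* (40.5), *DUT* (36.8), *DTYMK* (32.7), *TYMS* (29.6), *DCK* (9.23) and *RRM2B* (6.77). In Scramble cells the order was *TK1* (98.0 FPKM), *RRM2* (61.7), *DUT* (32.8), *DTYMK* (32.5), *RRM1* (30.6), *TYMS* (20.2), *DCK* (8.08) and *RRM2B* (6.00). *RRM1* thus stood above *DUT* and *DTYMK* in LEADR-KD cells and below them in Scramble cells, although its nearest neighbour overlapped with it in each group. The ranges of *RRM1* and *DUT*, of *DUT* and *DTYMK* and of *DTYMK* and *TYMS* overlapped in LEADR-KD, and those of *DUT*, *DTYMK* and *RRM1* in Scramble. The other neighbours were separate in all 3 libraries of a group.

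Among themselves the profiles of *RRM1* and *TK1* were the most alike. Over the 6 libraries their log2 CPM, each centred on its mean, differed by a root mean square of 0.04, the least of any pair of the 8, and *RRM2* and *DTYMK* differed most, by 0.36. Over all tested genes, those nearest to *RRM2* were *GALNT1* (root mean square 0.03 on the log2 scale) and *NCEH1* (0.03). Those nearest to *TYMS* were the cyclin-dependent kinase gene *CDK2* (0.03) and the kinase inhibitor gene *CDKN2C* (0.04). *TK1* lay nearest to *CMPK1* (0.02), the cytosolic UMP/CMP kinase gene, and *GCFC2* (0.02). *RRM1* lay nearest to *SENP1* and *SPCS2* (both 0.04). For the genes that did not pass, the nearest were *TPRG1L* and *KCNS3* to *RRM2B* (0.01 each), *C1orf116* and *DLK2* to *DCK* (0.02 each), *SLC35D2* (0.02) and *CCT4* (0.03) to *DUT*, and *PCK2* and *CSNK1E* to *DTYMK* (0.02 each). These distances are a description over 6 libraries and carry no test.

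Other genes of nucleotide metabolism were counted from lists written from general knowledge. Of 62 genes 58 were tested: 18 rose, 3 fell and 37 did not pass, with a median log2 fold change of 0.15. The share that passed was 36.2%, beside 24.4% of all genes. The number that rose was 11 with library totals as the scaling and 8 when limma was run on log2(FPKM + 1) of unfiltered genes. Of the 58, none is among the 8 enzyme genes.

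In the folate cycle, which supplies the methyl group for thymidylate, 4 of 9 genes rose and 0 fell. That is 44.4% of the list, beside 24.4% of all genes. The mitochondrial folate genes *SHMT2*, *MTHFD2* and *MTHFD1L* rose by 0.44, 0.45 and 0.42 on the log2 scale. The cytosolic genes *SHMT1* and *MTHFD1* did not pass, with log2 fold changes of -0.01 and 0.09. With library totals 2 genes of this list rose, and 1 by limma on unfiltered values.

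Of 9 tested nucleotide kinases 4 rose and 0 fell, a share of 44.4% beside 24.4% of all genes. *CMPK2*, the mitochondrial UMP/CMP kinase gene and an interferon-stimulated gene, was at 23.9 ± 6.46 CPM in LEADR-KD and 7.11 ± 3.17 CPM in Scramble (SD, n = 3; log2 fold change 1.76, edgeR adjusted p = 9.74e-04). Its cytosolic counterpart *CMPK1* rose by 0.36, *NME6* by 0.41 and *NME1* by 0.33. The *NME1* value is uncertain, since its annotated span overlaps that of *NME2* on the same strand, and *NME2* had 0 counts in every library. The number of kinases that rose was 2 without LEADR-KD 2, without both libraries numbered 1, with library totals and by limma on unfiltered values.

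Of 14 tested genes of other salvage steps 5 rose and 1 fell, a share of 42.9% beside 24.4% of all genes. The number that rose was 3 without Scramble 2, without both libraries numbered 1 or with library totals, and 2 by limma on unfiltered values. A count of 2 lower came without Scramble 1, without both libraries numbered 1, by DESeq2, with no filter and with a replicate block. *TK2*, the mitochondrial thymidine kinase gene, was at 12.0 ± 1.70 CPM in LEADR-KD and 6.40 ± 1.07 CPM in Scramble (SD, n = 3; log2 fold change 0.91, edgeR adjusted p = 0.00393). The deoxycytidylate deaminase gene *DCTD*, which supplies dUMP, rose by 0.55, the purine salvage gene *HPRT1* by 0.53, and the uridine phosphorylase gene *UPP1* by 0.48. *PNP*, the purine nucleoside phosphorylase gene, rose by 0.32. The nucleoside transporter gene *SLC29A1* fell to 37.5 ± 4.54 CPM in LEADR-KD, against 52.7 ± 1.90 CPM in Scramble (log2 fold change -0.49, edgeR adjusted p = 0.00618).

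Of 9 genes of breakdown and pool cleaning 1 rose and 1 fell, a share of 22.2% beside 24.4% of all genes. By limma on unfiltered values 0 of this list rose. *SAMHD1*, the dNTP triphosphohydrolase gene and also an interferon-stimulated gene in many cell types, was at 90.7 ± 14.7 CPM in LEADR-KD and 48.7 ± 12.2 CPM in Scramble (SD, n = 3; log2 fold change 0.90, edgeR adjusted p = 0.00254). *DCTPP1*, the dCTP pyrophosphatase gene, fell to 25.02 ± 1.96 CPM in LEADR-KD, against 52.98 ± 4.51 CPM in Scramble (log2 fold change -1.08, edgeR adjusted p = 3.98e-05).

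In the de novo purine pathway 3 of 12 genes rose and 1 fell, a share of 33.3% beside 24.4% of all genes. *PRPS2*, the PRPP synthetase gene, rose by 0.56, the IMP dehydrogenase gene *IMPDH1* by 0.40 and the GMP synthetase gene *GMPS* by 0.37. *PFAS*, an early enzyme of the pathway, fell to 31.4 ± 4.46 CPM in LEADR-KD, against 58.1 ± 2.22 CPM in Scramble (SD, n = 3; log2 fold change -0.89, edgeR adjusted p = 2.16e-04). In de novo pyrimidine synthesis 1 of 5 genes rose, the CTP synthetase gene *CTPS1* (log2 fold change 0.42), and *CAD*, which encodes the first 3 steps in 1 protein, did not pass (0.12).

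**Figure D4:**
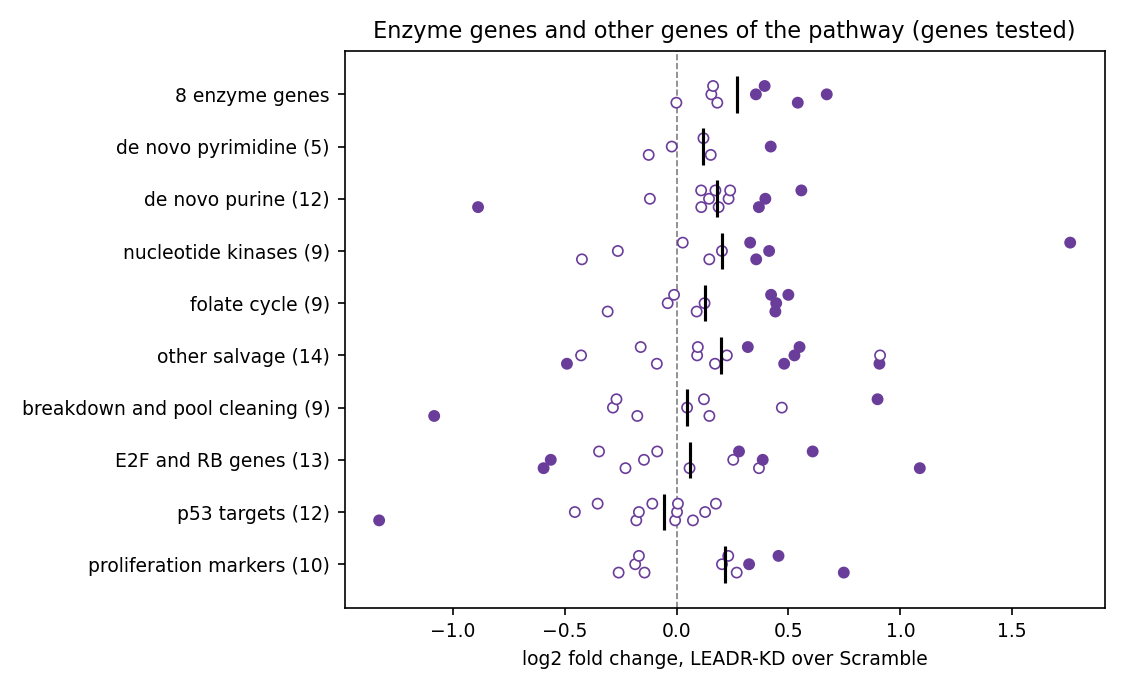
Log2 fold change, LEADR-KD over Scramble, of the 8 enzyme genes and of the tested members of each list (number in brackets), where filled points passed (adjusted p under 0.05) and bars show medians. The medians are 0.27 for the 8 enzyme genes and -0.06 for the p53 targets, and *CMPK2* (1.76) lies furthest to the right.

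Of 38 regulators of the 8 genes and markers of proliferation, the p53 targets included, 7 rose and 3 fell. The share that passed was 26.3%, close to the 24.4% of all genes, and the median log2 fold change was 0.0042. Of 13 E2F and RB family genes 4 rose, 2 fell and 7 did not pass (median log2 fold change 0.06). In this list 46.15% passed, beside 24.4% of all genes. The activators *E2F1*, *E2F2* and *E2F3* rose by 0.39, 1.09 and 0.28, with *E2F2* at 14.7 ± 2.44 CPM in LEADR-KD and 6.91 ± 1.04 CPM in Scramble (SD, n = 3; edgeR adjusted p = 0.00105). The pocket protein gene *RBL1* rose (log2 fold change 0.61), whereas *RBL2*, a pocket protein gene of quiescent cells, and the repressor gene *E2F6* had log2 fold changes of -0.59 and -0.56. With library totals as the scaling, 2 genes of this list rose.

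Of 10 markers of proliferation 3 rose, 0 fell and 7 did not pass, a share of 30.0% beside 24.4% of all genes. Those that rose were the sliding clamp gene *PCNA* (341 ± 18.5 CPM in LEADR-KD and 249 ± 21.2 CPM in Scramble, SD, n = 3; log2 fold change 0.46, edgeR adjusted p = 0.00323), the G1/S cyclin gene *CCNE2* (0.75) and *CDK1* (0.32). The 7 that did not pass lay on both sides of 0: *TOP2A*, *MKI67*, *CCNB1* and *AURKA* had log2 fold changes of -0.26, -0.18, -0.17 and -0.14, and *BIRC5*, *CCNE1* and *CCNA2* had 0.27, 0.23 and 0.20. By DESeq2 1 marker was lower and 4 were higher. A count of 1 lower was also found without LEADR-KD 1 and without both libraries numbered 1. The same count came with library totals, with a mean count of at least 50 and with a block for replicate number. The genes of 3 proteins that take part in the degradation of these enzymes (*CCNF* for the RRM2 protein, *FZR1* and *CDC20* of the anaphase-promoting complex) did not pass, with log2 fold changes of -0.07, 0.10 and 0.09. Whether the rise of the 4 enzyme genes goes with the E2F genes or with the share of cells in S phase was not tested here. Separately, the study reported no significant change in growth or in EdU incorporation, which marks cells in S phase, after *LEADR* knock-down. Cells for its growth curves were seeded 48 h after knock-down, so that assay came later than the RNA.

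The siRNA itself can bind other transcripts through bases 2 to 8 of a strand, so the 3′ untranslated regions of the 8 genes were searched for such matches, in the GENCODE annotation lifted to GRCh37. The *LEADR* siRNA is shown with bases 2 to 8 in capitals, and the matching sites in the 2 genes that hold one are shown with the complementary 7 bases in capitals.

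LEADR siRNA: aACUGGGUgcuuuauauagga
RRM2 (chr2:10270622-10270648, plus strand): tacttcagtcACCCAGTgtcttattct
DUT (chr15:48635346-48635372, plus strand): ccacttgaccACCCAGTttgtggaagc

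*RRM2*, which rose, and *DUT*, which did not pass, held the 7-base match ACCCAGT, and *TK1* held only CCCAGT, the match to bases 2 to 7. *RRM1*, *RRM2B*, *TYMS*, *DCK* and *DTYMK* held none of these, and none of the 8 held ACCCAGTA or ATATAGG, the match to the complementary strand. Among 12092 tested genes with an annotated 3′ untranslated region, 14.2% held ACCCAGT, 11.5% CCCAGTA, 43.9% CCCAGT and 9.33% ATATAGG. Of the 3 pathway genes that fell, *PFAS* held ACCCAGT, *DCTPP1* held CCCAGTA and *SLC29A1* held CCCAGT alone. Of the 18 that rose, *GMPS* and *SAMHD1* held ACCCAGT, *CTPS1* held CCCAGTA, *IMPDH1*, *CMPK2* and *MTHFD1L* held CCCAGT alone and *PRPS2* held ATATAGG. Which strand of the siRNA was active, and any part of these matches in the changes, was not tested.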

How the data were processed

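Poly(A) RNA of RT4 cells was measured in 3 LEADR-KD and 3 Scramble libraries, grouped and numbered from the submitters' labels. The authors deposited raw counts per gene and FPKM values. For alignment to hg19 the submitters' processing notes list HISAT2 (2.0.5), and for counting featureCounts (1.5.0-p3), whereas the study's methods give Salmon. The deposited FPKM is each count divided by gene length and by 1 constant per library. Another deposited file holds fold changes and p-values of the authors' own comparison by DESeq2 1.20.0 and was not used.

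Counts were filtered with filterByExpr (minimum count 10), scaled by TMM and tested by edgeR 4.0.16 (quasi-likelihood, no covariate, R 4.3.3), LEADR-KD over Scramble, with Benjamini-Hochberg adjustment over all 14178 genes. "Rose" and "fell" mean an adjusted p under 0.05. The standard error is the log2 fold change divided by the square root of F, and the 95% interval uses the t distribution with the test's degrees of freedom. Steps were tested on simulated counts. Alternatives were DESeq2 1.42.0, limma 3.58.1 on log2(FPKM + 1) or log2(FPKM + 0.1), other scalings and filters, a block and left-out libraries. The 8 genes and all lists were chosen with earlier results of these data known. The text names the 8 genes, *MIR205HG*, up to 4 called genes per list and direction, and the 2 nearest profiles to each of the 8; *PNP*, *ENOSF1*, *MOB1B*, the cell type markers and the genes that did not pass were added after their values were seen. The values of 1 called gene of the folate list are not reported here.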

Additional observations from a re-analysis of the deposited data

How the results depend on the processing

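The calls of the 8 enzyme genes, 4 higher and 0 lower, were the same under 15 of 16 alternatives, among them DESeq2, library totals, the fit without both libraries numbered 1 and each of the 6 fits that left out 1 library. Over these 6 fits the log2 fold change was 0.32 to 0.46 for *RRM1*, 0.64 to 0.71 for *RRM2*, 0.11 to 0.22 for *RRM2B*, 0.46 to 0.62 for *TYMS*, 0.31 to 0.40 for *TK1*, 0.16 to 0.24 for *DCK*, 0.09 to 0.24 for *DUT*, -0.0773 to 0.0669 for *DTYMK* and -1.82 to -1.22 for *MIR205HG*. By limma on log2(FPKM + 1) with no filter 2 of the 8 rose: *RRM1* (0.40, adjusted p = 0.0502), *TK1* (0.36, 0.0547) and *MIR205HG* (-1.16, 0.0507) missed the threshold, all genes gave 915 higher and 854 lower, and the pathway lists 8 higher. The sign of *DTYMK* turned with DESeq2 (0.0098), its size factors (0.0041), no filter (0.0095) and limma (0.0104 with a pseudocount of 1, with or without the filter, and 0.0107 with 0.1). With library totals only 1085 genes were higher in all, 11 in the pathway lists and 4 in the regulator lists, and the median of all genes was -0.06. Leaving out 1 library gave 1188 to 1457 genes higher and 1142 to 1472 lower in all, the lowest number lower without LEADR-KD 2. Without both libraries numbered 1 the regulator lists had 5 lower.

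Whether the replicate numbers pair the libraries was not settled. Over genes, the deviations of same-numbered libraries correlated at 0.23, 0.00058 and 0.27. Those of differently numbered libraries correlated at -0.296 to 0.0755. With the replicate block 2489 genes were higher and 2365 lower in all, beside 1736 and 1719 without it. With the block 4 of the 8 rose, 5 pathway genes were lower, and the regulator lists had 11 higher and 6 lower. The cause of these shifts was not tested. Depth limits the lowest of the named genes, such as *BBC3* with 14 to 85 counts per library.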
